A study of Mus musculus with 12 samples.

Results

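The genes described here are those of the mouse mitochondrial genome, a small circle of DNA kept in many copies inside each mitochondrion. They were chosen by name, as every gene whose symbol starts with mt-, which gave 37 of the 53801 genes in the count table: 13 mRNAs, 2 rRNAs and 22 tRNAs. Total RNA was sequenced from the colon and the whole blood of the same 6 male C57BL/6 mice aged 8 weeks. Mice 1, 2 and 4 are labelled UC, the label of the group given 1.5% dextran sulfate sodium (DSS) in the drinking water for 7 days. DSS damages the gut lining and gives an acute colitis that serves as a model of ulcerative colitis (UC). Mice 7, 8 and 9 are labelled control, the label of the group given no DSS, and all mice were killed on day 8. This gave 12 libraries in 4 groups of 3, colon UC, colon control, blood UC and blood control.

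The mitochondrial genome is read from both strands as long transcripts that are cut into single RNAs, and tRNAs lie between many of the mRNAs and rRNAs. Its mRNAs encode core subunits of 4 enzymes of oxidative phosphorylation (OXPHOS), and the nuclear genome encodes the remaining subunits. Its rRNAs form the core of the mitochondrial ribosome. In the colon, absorptive epithelial cells are rich in mitochondria. Mature red cells, which make up most cells of whole blood, have lost theirs, so that mitochondrial RNA of blood comes from leukocytes, platelets and young red cells.

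Total counts ran from 69181049 to 103662306 in the colon libraries and from 80867247 to 142536804 in the blood libraries. The 7SL and 7SK genes Rn7s1, Rn7s2 and Rn7sk, whose abundant noncoding RNAs are encoded by the nuclear genome, took between 36.4% and 65.9% of a blood library and between 6.43% and 8.23% of a colon library. The labels name the tissue in 2 fields, which contradict each other in every sample. The groups follow the field under which colonic genes were high in the libraries called colon: summed CPM (the count divided by the library total, times 1e+06) of 5 goblet cell markers were 13615 to 23653 there and at most 2.75 in blood. The labels for disease did not sort the inflammation genes. The normalized count of S100a8, a neutrophil protein, was 5370, 33.1 and 22.3 in the colon of mice 1, 2 and 4 and 1888, 75.6 and 13337 in that of mice 7, 8 and 9. Lcn2, an iron-binding defence protein, was at 1248, 96.7 and 99.8 in the same UC colons and 1208, 117 and 9155 in the control ones. In blood S100a8 was at 88578, 14299 and 11466 in mice 1, 2 and 4 and 37179, 8642 and 101913 in mice 7, 8 and 9. Blood Lcn2 was at 9234, 169 and 170 and at 774, 182 and 1886 in the same order. Both genes were thus higher in mice 1, 7 and 9 than in mice 2, 4 and 8, in colon and in blood. The deposited normalized tables list the mice in the order 1, 7, 9, 2, 4 and 8. Whether disease labels were exchanged between mice was not tested, so each comparison of UC with control below is one of libraries by their labels only.

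The position of the genes bears on which counts can be read alone, and 2 stretches are shown for that reason. On chromosome M of GRCm38, 12 of the 13 mRNA genes lie on the plus strand and mt-Nd6 lies on the minus strand. The tRNA genes are 59 to 75 bases long, with 14 on the plus and 8 on the minus strand. The longest overlaps are those of mt-Atp8 and mt-Atp6, which share 43 bases, of mt-Nd5 and mt-Nd6, which share 14 on opposite strands, and of mt-Nd4l and mt-Nd4, which share 7. Reads of bases shared on the same strand cannot be told apart. No strand setting is named for the counting, so those shared by mt-Nd5 and mt-Nd6 cannot be either. The same-strand pairs are shown, and capitals mark the shared bases in the stretches chrM:7907-7989 and chrM:10147-10193, both on the plus strand:
mt-Atp8/mt-Atp6: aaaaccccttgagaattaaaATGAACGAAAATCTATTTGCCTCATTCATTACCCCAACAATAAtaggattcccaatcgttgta
mt-Nd4l/mt-Nd4: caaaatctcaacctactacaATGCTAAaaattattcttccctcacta

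Another limit is a nuclear copy of part of this genome. On chromosome 1, minus strand, between bases 24611535 and 24616197, the annotation holds 7 pseudogenes that each match 1 mitochondrial gene. Of these, 6 match over their whole length or nearly so with 0 mismatches: Gm28439 (the first 876 bases of mt-Nd4), Gm10222 (mt-Nd4l), Gm28438 (mt-Nd3), Gm28437 (mt-Co3), Gm10925 (mt-Atp6) and Gm28661 (mt-Co2). Gm29216 matches bases 1063 to 1545 of mt-Co1 with 1 substitution, A1066T, counted from 1 at the 5′ end of mt-Co1. Further copies on chromosome 2 are less alike, at 97.62% for Gm13341 against mt-Co2, 97.61% for Gm13340 against mt-Co1 and 96.67% for Gm13339 against mt-Nd2. The whole mt-Nd4l gene (chrM:9877-10173, plus strand) is shown because its first 294 bases and all 294 bases of Gm10222 (chr1:24612407-24612700, minus strand) are the same:
mt-Nd4l: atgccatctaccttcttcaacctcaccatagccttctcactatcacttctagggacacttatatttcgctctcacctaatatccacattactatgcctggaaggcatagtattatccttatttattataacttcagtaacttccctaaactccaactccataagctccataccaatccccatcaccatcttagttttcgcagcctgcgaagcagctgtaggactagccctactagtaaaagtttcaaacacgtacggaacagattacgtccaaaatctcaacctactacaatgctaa

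Reads from such bases cannot be placed by sequence, and counts of several pairs were nearly equal. In the 6 colon libraries the count of mt-Co3 was 1.0014 to 1.0031 times that of Gm28437, the count of mt-Co2 was 0.998 to 1.000 times that of Gm28661, and that of mt-Nd4l was 1.000 to 1.005 times that of Gm10222. In colon mouse 1, for example, mt-Co3 had 455361 counts and Gm28437 454627. The pair mt-Nd3 and Gm28438 stood at 0.987 to 0.992. mt-Atp6 was instead the smaller of its pair, at 0.230 to 0.252 times Gm10925 in the colon. Counts of mt-Co2, mt-Co3, mt-Atp6, mt-Nd3, mt-Nd4l, and of parts of mt-Nd4 and mt-Co1, are thus uncertain, whereas mt-Nd1, mt-Nd2, mt-Nd5, mt-Nd6, mt-Cytb and both rRNAs match none of these 7 pseudogenes. mt-Atp8 is uncertain too, as its last 43 bases are the first of mt-Atp6 and so lie in Gm10925. The 233 bases between Gm10925 and Gm28661 lie outside the pseudogenes found and were not compared with the rest of mt-Atp8. How many of these reads came from chromosome 1 was not tested.

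**Figure D1:**
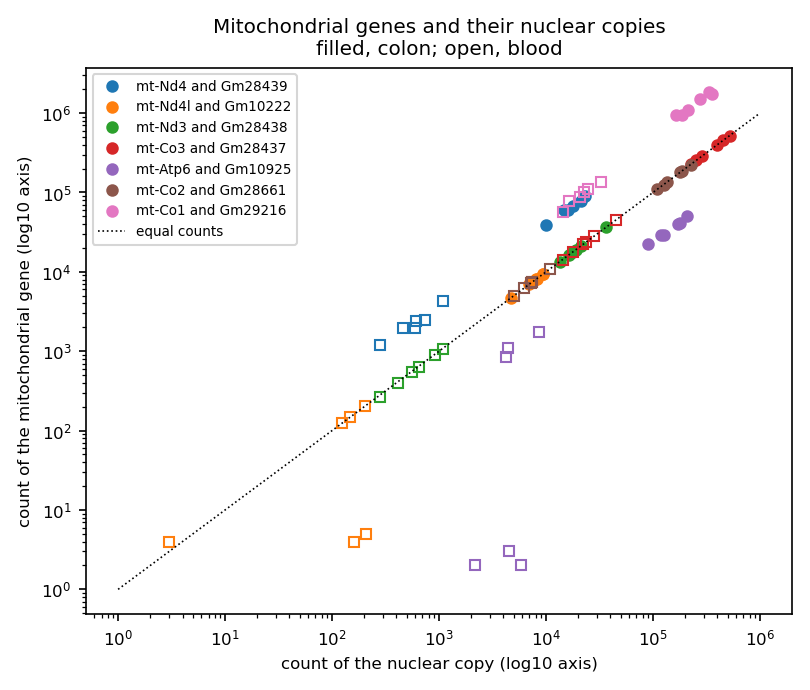
Count of each mitochondrial gene against the count of its nuclear copy on chromosome 1, 1 point per library, on log10 axes, with filled circles for colon, open squares for blood and a dotted line for equal counts. The pairs of mt-Co2, mt-Co3 and mt-Nd3 lie on or close to the line in all 12 libraries, and mt-Atp6 lies below it, at 2 or 3 counts against 2159 to 5856 for Gm10925 in 3 blood libraries.

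In blood the overlapping and copied genes were divided in another way. mt-Atp6, a subunit of the proton channel of ATP synthase, had 3, 2 and 834 counts in mice 1, 2 and 4 and 1095, 2 and 1736 in mice 7, 8 and 9. Its neighbour mt-Atp8 had 473, 846 and 506 counts and 374, 200 and 1257 in the same order. Gm10925 had 4467, 5856 and 4255 counts and 4431, 2159 and 8591. The 3 libraries with almost no mt-Atp6 therefore had mt-Atp8 and Gm10925 counts within the range of the others or, in mouse 8, the lowest. mt-Atp6 made up 16.4% to 19.8% of mt-Atp6 and Gm10925 together in the other 3 blood libraries and 18.7% to 20.2% in the 6 colon libraries, but 0.0341% to 0.0925% in the blood of mice 1, 2 and 8. mt-Nd4l, a small membrane subunit of complex I, also came in 2 sizes in blood, with 147, 126, 5, 4, 4 and 205 counts in mice 1, 2, 4, 7, 8 and 9. Its copy Gm10222 had 146, 125, 206, 162, 3 and 203. In mice 4 and 7 the copy kept a count like that of the other libraries while mt-Nd4l had 5 and 4. Neither split followed the labels, and values of these 2 genes in blood are not used alone below.

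**Figure D2:**
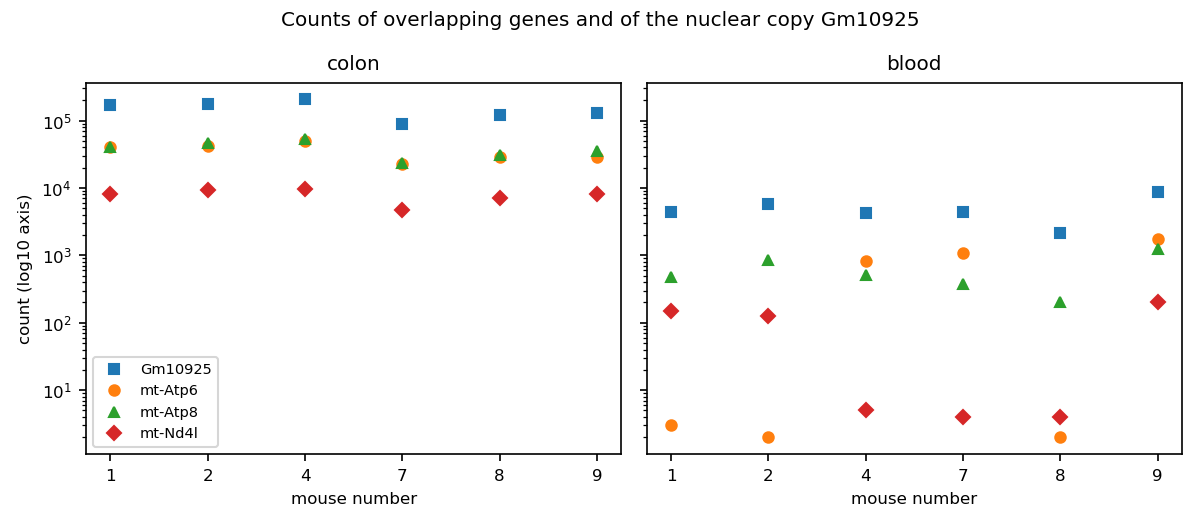
Counts of mt-Atp8, mt-Atp6, mt-Nd4l and the nuclear copy Gm10925 in each library, on a log10 axis shared by the colon and blood panels. In the colon every gene keeps its place in all 6 mice, whereas in blood mt-Atp6 falls to 2 or 3 counts in mice 1, 2 and 8 and mt-Nd4l to 4 or 5 in mice 4, 7 and 8.

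The 13 mitochondrial mRNAs took 2.67% ± 0.434 (SD, n = 6) of the colon libraries and 0.128% ± 0.0660 (SD, n = 6) of the blood libraries. The share was 3.19%, 2.82% and 3.03% in the colon of mice 1, 2 and 4 and 2.33%, 2.58% and 2.04% in that of mice 7, 8 and 9. In blood it was 0.103%, 0.184% and 0.0870% in mice 1, 2 and 4 and 0.102%, 0.0582% and 0.232% in mice 7, 8 and 9. Every colon library was above every blood library, and within a mouse the colon share was 8.80 to 44.4 times that of blood (median 26.9). The 95% Wilson interval was narrow throughout, for example 0.0578% to 0.0586% in the blood of mouse 8. It treats each count as an independent read, whereas these counts derive from coverage. It may thus be too narrow even for counting error, and it does not cover the spread between mice. Leaving Rn7s1, Rn7s2 and Rn7sk out of the total gave 2.19% to 3.41% in colon and 0.171% to 0.410% in blood, 6.00 to 16.3 times within a mouse (median 12.3).

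Among colon libraries the 3 highest shares were those of mice labelled UC, 3.01% ± 0.184 against 2.32% ± 0.270 (SD, n = 3 each), and the groups did not overlap. In blood they overlapped, at 0.125% ± 0.0518 against 0.131% ± 0.0905 (SD, n = 3 each). As a sum over genes chosen together, the share was given no test. Depth moved with the label too, since the colon libraries labelled UC had 93226549 to 103662306 counts and those labelled control 69181049 to 86450786, and its part in the share was not tested. The lowest colon share came from mouse 9, the library with the most Lcn2 and S100a8, and the highest from mouse 1, which had the next highest of both.

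Cell type markers moved with the tissue as well. The summed CPM of 7 red cell genes was 35035 to 80749 in blood and 10.2 to 49.9 in colon, and that of 6 platelet genes was 1137 to 2416 against 6.57 to 11.6. Conversely 6 absorptive colonocyte genes summed to 2137 to 10579 CPM in colon and 4.42 to 11.3 in blood, where Krt20 was at 0. Smooth muscle genes, also 6, summed to 1647 to 6562 CPM in colon and at most 2.66 in blood. The remaining lists were lower in colon: neutrophil genes at 2.22 to 508 against 246 to 4581 CPM, B cell genes at 1.71 to 30.7 against 84.5 to 256, and T cell genes at 0.855 to 8.34 against 18.9 to 47.5. The part of this cell make-up in the shares was not tested. In these bulk samples fewer cells that hold mitochondria and less mitochondrial RNA in each cell cannot be told apart. RNA was extracted and depleted of rRNA with different kits in colon and blood, and globin RNA was removed only from blood. Tissue and preparation therefore cannot be told apart either.

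The rRNAs varied far more than the mRNAs. mt-Rnr1, of the small ribosomal subunit, and mt-Rnr2, of the large one, together took 5.54%, 6.32% and 2.94% of the colon libraries of mice 1, 2 and 4 and 7.37%, 11.0% and 1.65% of those of mice 7, 8 and 9. In blood they took 0.192%, 0.447% and 0.142%, and 0.214%, 0.0965% and 0.883%. The labelled groups overlapped in both tissues. The highest normalized count of mt-Rnr1 in the colon was 17.6 times the lowest and that of mt-Rnr2 6.49 times, whereas among the mRNAs this range was between 1.31 times (mt-Nd5) and 2.09 times (mt-Co3). Ribosomal RNA was depleted before sequencing and ribosomal reads were removed from the data, so these counts are what those steps left.

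**Figure D3:**
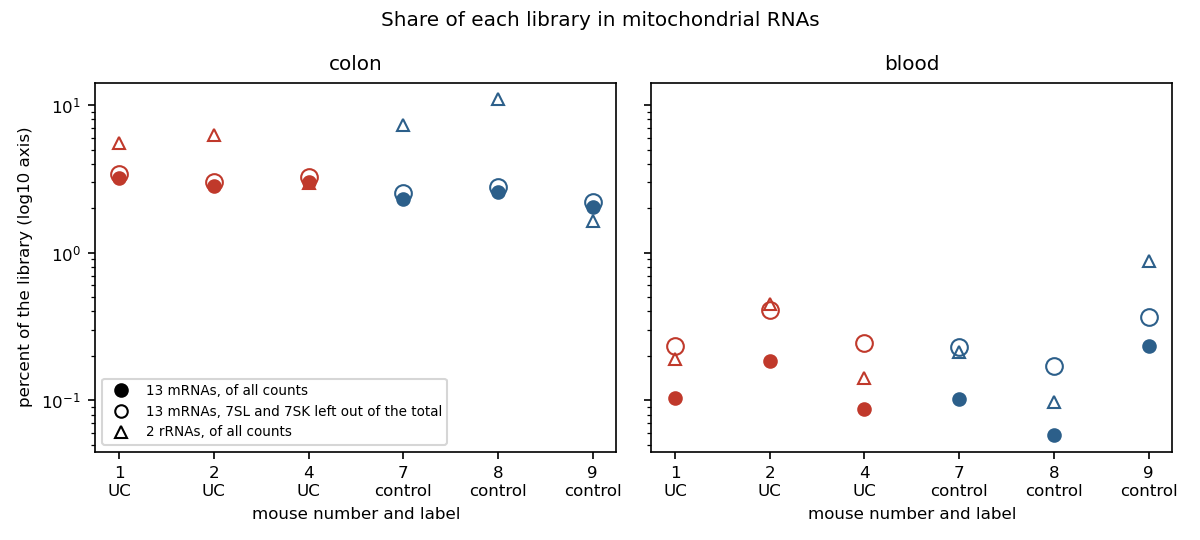
Percent of each library in the 13 mitochondrial mRNAs (filled circles), in the same mRNAs with 7SL and 7SK left out of the total (open circles) and in the 2 mitochondrial rRNAs (triangles), by mouse number and label (red UC, blue control), on a log10 axis. All colon values of the mRNAs lie above all blood values, and the rRNAs spread from 1.65% to 11.0% in colon while the mRNAs stay between 2.04% and 3.19%.

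Compared per length, as CPM per kb of gene, the genes kept a steep order. In the colon mt-Co1, the catalytic core of cytochrome c oxidase (complex IV), was highest at 9858 ± 1894 (SD, n = 6), followed by mt-Co3 at 5199 ± 1116 and mt-Co2 at 2664 ± 355 of the same enzyme. mt-Atp8 stood at 2119 ± 316, mt-Nd1 at 1286 ± 144 and mt-Cytb, the mitochondrial subunit of complex III, at 1008 ± 149. Each of these was above the next in 6 of 6 colon libraries. A middle group could not be ordered: mt-Nd3 (670 ± 174), mt-Atp6 (591 ± 91.2), mt-Nd2 (554 ± 70.7) and mt-Nd4 (545 ± 85.3) exchanged places, with mt-Nd3 above mt-Atp6 in 4 of 6 libraries and mt-Nd2 above mt-Nd4 in 4 of 6. mt-Nd5 followed at 345 ± 35.5, then mt-Nd4l at 302 ± 38.1, and mt-Nd6, the subunit of complex I encoded on the opposite strand, was lowest at 52.3 ± 8.82, again in 6 of 6 libraries.

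The same 3 genes led in blood, where mt-Co1 was at 560 ± 272, mt-Co3 at 300.0 ± 194 and mt-Co2 at 97.3 ± 46.7 CPM per kb (SD, n = 6), in this order in 6 of 6 libraries. Below them mt-Atp8 (28.9 ± 24.1), mt-Cytb (23.3 ± 11.5), mt-Nd1 (21.0 ± 12.6) and mt-Nd3 (16.4 ± 9.97) overlapped. mt-Nd4 (15.8 ± 9.59) was above mt-Nd2 (8.73 ± 4.41) in 6 of 6 blood libraries. mt-Nd5 had 7.20 ± 3.96 and mt-Nd6 1.60 ± 1.68. Adding the count of the nuclear copy raised mt-Co3 in the colon to 10388 ± 2230, mt-Co2 to 5332 ± 712 and mt-Atp6 to 3064 ± 484 CPM per kb, and the level of mt-Atp6 then exceeded that of mt-Atp8. The order among copied genes is therefore not settled by these counts.

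**Figure D4:**
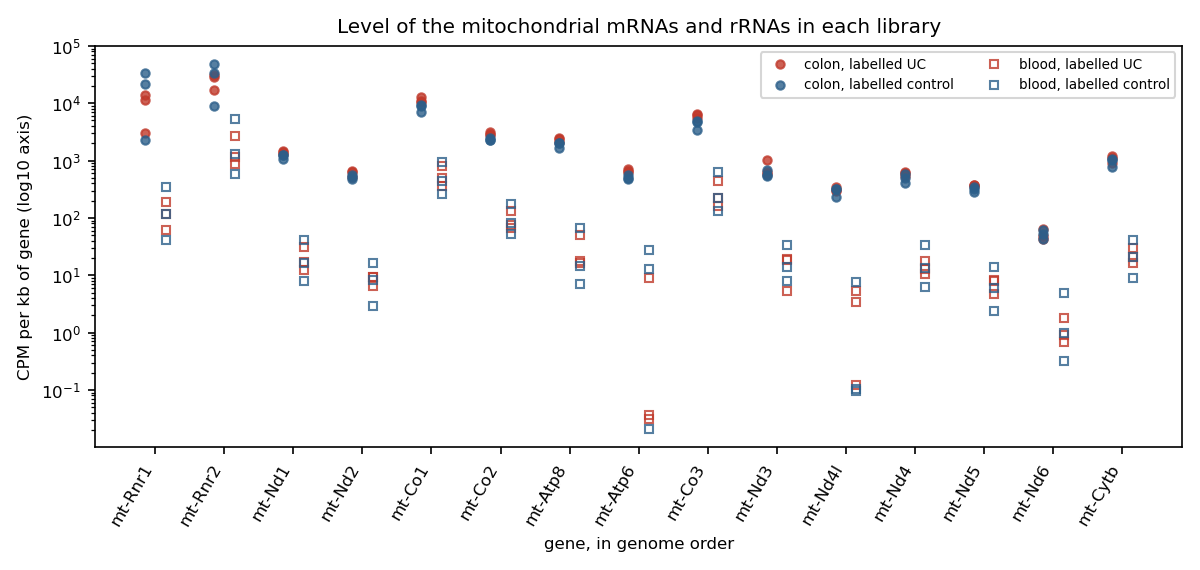
Level of each mitochondrial mRNA and rRNA in CPM per kb of gene on a log10 axis, 1 point per library, with filled circles for colon, open squares for blood, red for libraries labelled UC and blue for control. The colon points of most mRNAs lie close together, with mt-Co1 at the top and mt-Nd6 at the bottom, and the blood points are lower and wider apart, with mt-Atp6 and mt-Nd4l each in 2 clusters.

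Whether the labelled treatment moved these genes was asked first in the colon, with edgeR's quasi-likelihood test on the counts and Benjamini-Hochberg adjustment over all genes. Significantly differentially expressed (SDE) genes are those with a log2 fold change (log2FC) beyond 1 in either direction and an adjusted p of 0.05 or less. Of the 28 mitochondrial genes with enough counts to be tested (13 mRNAs, 2 rRNAs and 13 tRNAs), 0 were SDE, 0 had an unadjusted p under 0.05, and DESeq2 also called 0. Among all 22238 genes tested 1 was SDE (0.0045%) and 313 had an unadjusted p under 0.05, so that few genes of any kind were called. DESeq2 called 6 genes in all. The study, which used DESeq2 and the same threshold, reported far more SDE genes in colon and in blood. The cause of this difference was not tested.

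The mRNAs were nonetheless slightly higher on average in the libraries labelled UC. The log2FC was above 0 for 12 of 13, with a median of 0.20 beside -0.01 over all genes tested. Over the alternatives this median ran from 0.14 to 0.40, the highest being that without mouse 8. The log2FC of single mRNAs ran from -0.06 (SE 0.26) for mt-Nd6 to 0.42 (SE 0.28) for mt-Co3. mt-Co1 stood at 0.37 (SE 0.29), mt-Nd1 at 0.20 (SE 0.19), mt-Nd5 at 0.18 (SE 0.19) and mt-Cytb at 0.14 (SE 0.21). The genes share libraries and a scale, so their common sign is no count of independent events. Of the 28, 4 did not overlap between the labelled groups, beside 5.67% of all genes tested: mt-Atp8, mt-Atp6, mt-Tk and mt-Tt, each higher in UC. For mt-Atp8 the normalized counts were 38442, 40147 and 43906 in UC and 29321, 38318 and 31634 in control. Its highest control was thus close below its lowest UC library, and its log2FC was 0.29 (SE 0.18, adjusted p = 0.99995). mt-Atp6 shares 43 bases with mt-Atp8, so the 2 are not separate observations. Its groups were also close, at 36399 in the lowest UC library and 36230 in the highest control. mt-Tk had only 7 to 17 counts and mt-Tt 12 to 47.

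The rRNAs went the other way on average, with a log2FC of -1.15 (SE 1.00) for mt-Rnr1 and -0.36 (SE 0.67) for mt-Rnr2, both less than 2 SE from 0. mt-Rnr1 had 1003289, 1250015 and 295835 counts in mice 1, 2 and 4 and 1407077, 2393337 and 190063 in mice 7, 8 and 9. The lowest value in each labelled group came with the lowest mt-Rnr2 of that group, 2756360 in mouse 4 and 1234576 in mouse 9.

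In blood 15 mitochondrial genes could be tested, all 13 mRNAs and both rRNAs. SDE genes numbered 0, with 0 at an unadjusted p under 0.05 and 0 by DESeq2, beside 0 of 16759 among all genes (0.0%), of which 241 had an unadjusted p under 0.05. The median log2FC of the mRNAs was 0.32 beside 0.04 over all genes. It became -0.14 beside -0.27 when libraries were scaled by their totals alone, and -0.08 without mouse 2, so blood gave no steady direction. mt-Co1 had 116959, 153719 and 63461 normalized counts in UC and 67439, 65634 and 113667 in control, a log2FC of 0.44 (SE 0.41). Both labelled groups held a high and a low library. mt-Cytb was at 0.35 (SE 0.33) and mt-Nd5 at 0.43 (SE 0.43). mt-Atp6 (-1.70, SE 1.92) and mt-Nd4l (0.97, SE 1.51) had the widest errors, as their counts in blood fell into 2 sizes. No member was without overlap between the labelled blood groups, beside 6.5% of all genes tested.

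The difference of the UC effect between colon and blood was tested directly as an interaction. Of 28 mitochondrial genes 0 passed, 0 had an unadjusted p under 0.05, and 0 passed by DESeq2, which gave mt-Atp6 no p, beside 1 of 23258 genes tested (0.0043%). The mRNAs had a median difference of -0.07 beside -0.06 over all genes tested.

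**Figure D5:**
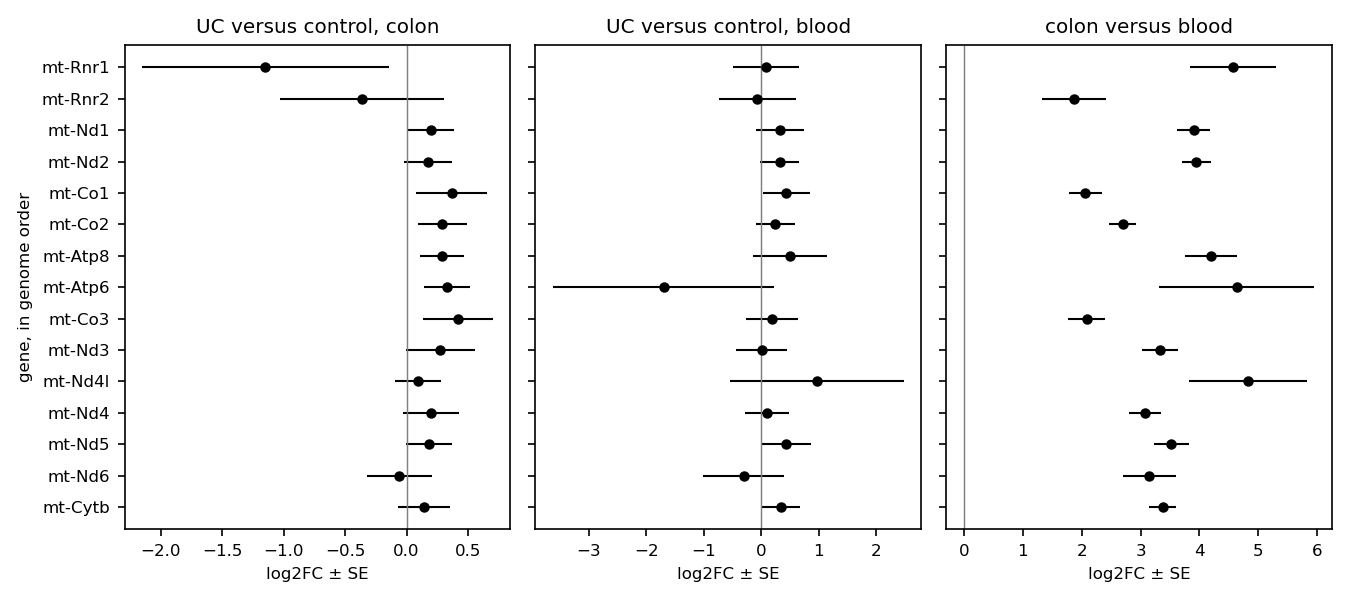
The log2FC with its SE for each mitochondrial mRNA and rRNA in UC against control in colon, UC against control in blood, and colon against blood, with a grey line at 0 and a separate scale in each panel. Values of the UC comparisons lie less than 2 SE from 0, and all values of colon against blood lie above 0, from 1.87 for mt-Rnr2 to 4.83 for mt-Nd4l.

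Between colon and blood all 13 mRNAs and both rRNAs were SDE and higher in colon (edgeR's quasi-likelihood test, 6 libraries a tissue), beside 37.7% of the 23258 genes tested that were called higher in colon. All 15 were also abundant enough to be tested in blood alone. The median log2FC of the mRNAs was 3.38, beside 0.46 over all genes. Scaling by library totals alone gave 5.43 beside 2.57, and in both cases all 13 were SDE. Values of the complex I genes ran from 3.07 to 4.83. Of these, mt-Nd2 was at 554 CPM per kb in colon and 8.73 in blood, values that rest on library totals. Its log2FC by edgeR's quasi-likelihood test, which scales libraries otherwise, was 3.95 (SE 0.24, adjusted p = 1.77e-07). mt-Nd1 was at 3.90 (SE 0.28) and mt-Nd5 at 3.52 (SE 0.29). mt-Cytb of complex III was at 3.38 (SE 0.23). The complex IV genes had the lowest values of the mRNAs, with mt-Co1 at 2.06 (SE 0.28), mt-Co3 at 2.08 (SE 0.31) and mt-Co2 at 2.70 (SE 0.23). The complex I genes mt-Nd3 at 3.33 (SE 0.31), mt-Nd6 at 3.15 (SE 0.45) and mt-Nd4 at 3.07 (SE 0.27) lay below the median of the mRNAs. mt-Atp8 of complex V stood at 4.20 (SE 0.44), above the 3 complex I genes named first. mt-Atp6 (4.63, SE 1.32) and mt-Nd4l (4.83, SE 1.00) carry the split counts of blood described above, and mt-Atp6 was not called among control libraries alone (3.59, adjusted p = 0.0658 by edgeR's quasi-likelihood test). DESeq2 gave it no p. mt-Rnr1 was at 4.57 (SE 0.74) and mt-Rnr2 at 1.87 (SE 0.54), which was not called among control libraries alone either (1.99).

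Unequal differences between tissues gave blood another composition of mitochondrial mRNA. mt-Co1 made up 61.5%, 56.6%, 54.8%, 58.3%, 56.8% and 53.7% of the 13 mRNA counts in the colon of mice 1, 2, 4, 7, 8 and 9, and 75.5%, 68.7%, 64.9%, 67.9%, 69.9% and 64.1% in their blood. The tissues did not overlap. All complex IV mRNAs together took 74.4% to 83.1% in colon and 89.7% to 93.4% in blood, and the complex I mRNAs 10.9% to 16.1% in colon and 4.55% to 6.39% in blood.

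Ratios of counts per base were tested within mice, by an exact two-sided permutation test that flips the sign of each mouse's difference, for which the smallest p with 6 mice is 0.031. Of 10 ratios, 5 reached it and none passed after Benjamini-Hochberg adjustment over the 10 (adjusted p = 0.0625 for those 5). With 5 ratios at the smallest possible p, no lower adjusted value could be had, so not passing tells nothing about them. mt-Co1 over mt-Nd5 was 21.9 to 34.4 in colon and 61.5 to 112 in blood, lower in colon in 6 of 6 mice by a mean log2 difference of -1.52. mt-Nd4 over mt-Nd5 differed by -0.48 on the log2 scale, although the tissues overlapped, at 1.43 to 1.71 in colon and 1.55 to 2.67 in blood. Lower in colon as well was mt-Rnr2 over mt-Rnr1, by -2.35, at 1.44 to 5.62 in colon and 9.87 to 15.6 in blood. Ribosomal RNA was depleted with different kits in colon and blood, so tissue and depletion cannot be told apart in this ratio. mt-Co2 over mt-Co1 was higher in colon, 0.230 to 0.323 against 0.150 to 0.196. mt-Atp6 over mt-Co3 was higher by 5.51 on the log2 scale, which became 1.27 once copies were added to both genes. The other 5 ratios overlapped between tissues. mt-Nd1 over mt-Nd2, neither with a copy on chromosome 1, had a mean log2 difference of -0.01, with 2.22 to 2.55 in colon and 1.82 to 3.34 in blood (exact p = 0.96875). mt-Cytb over mt-Nd5 differed by -0.20 (exact p = 0.1875), mt-Nd6 over mt-Nd5 by -0.21 (exact p = 0.53125), mt-Co1 over mt-Co3 by -0.06 (exact p = 0.625) and mt-Nd3 over mt-Nd4l by -3.10 (exact p = 0.0625). Within a tissue, the exact permutation test of 3 libraries against 3 cannot go below p = 0.1. Only mt-Nd4 over mt-Nd5 in blood reached that, with a log2 difference of -0.32 between UC and control (exact p = 0.1, adjusted p = 0.889). The remaining adjusted values were 0.875 or more in both tissues.

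The tRNAs gave few counts, and whether these came from mature tRNAs or from neighbouring transcripts was not tested. All 22 together had 894 to 1490 counts in a colon library and 26 to 86 in a blood library. Those on the plus strand, 14 genes, held 831 to 1408 of the colon counts and the 8 on the minus strand 53 to 104. A mean of at least 100 counts was reached by 3 in the colon and by 0 in blood. mt-Tl1, a leucine tRNA between mt-Rnr2 and mt-Nd1, had 504, 405 and 802 counts in the colon of mice 1, 2 and 4 and 407, 416 and 443 in that of mice 7, 8 and 9. In blood it had 5 to 25. mt-Tm (methionine) followed with 123 to 244 colon counts and mt-Tw (tryptophan) with 68 to 168, and both border mt-Nd2. At the other end mt-Ts2 (serine) had 0 or 1 count in a colon library. mt-Tf (phenylalanine), the first gene of the genome, had 45, 47, 1, 63, 92 and 20 counts in the colon of mice 1, 2, 4, 7, 8 and 9 and 0 in all 6 blood libraries, where 0 allows up to 3 counts a library. Its mean colon level of 0.563 CPM was at least 21.5-fold higher than this floor, although mouse 4 alone, at 1 count, lay under it. That fold rests on library totals, under which the median log2FC of colon against blood over all genes was already 2.57. The colon libraries with the most mt-Tf were also those with the most mt-Rnr1, the gene that follows it after 1 base, in the order mouse 8, 7, 2 and 1, and mice 4 and 9 were lowest in both.
mt-Tl1: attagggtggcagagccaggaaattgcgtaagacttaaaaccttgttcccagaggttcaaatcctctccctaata
mt-Tf: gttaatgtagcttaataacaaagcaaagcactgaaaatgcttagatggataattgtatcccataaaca

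These plus-strand stretches, chrM:2676-2750 for mt-Tl1 and chrM:1-68 for mt-Tf, are the whole genes, shown as the tRNA with the most counts and the one with none in blood. Both come from GENCODE transcripts of GRCm38. In the test of colon against blood 13 tRNAs had enough counts, which they owed to the colon, so how many passed is no finding.

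Nuclear partners of these genes were also higher in colon, but by less. Of 77 nuclear OXPHOS genes tested, 48 were SDE higher in colon and 5 lower, beside 37.7% higher and 20.8% lower among all genes, with a median log2FC of 1.50 beside 0.46. Scaling by library totals alone gave 74 higher and 0 lower, but 76.9% of all genes were then higher and 7.55% lower. Within each mouse, the summed count of the 13 mitochondrial mRNAs was 2.03 to 3.33 times that of these nuclear genes in colon and 0.382 to 1.02 times in blood, without overlap. The colon value was 2.09 to 6.96 times that of blood. This quotient does not depend on how many counts 7SL took.

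By enzyme, 25 of 36 nuclear genes of complex I were higher in colon (median 1.58), 4 of 4 of complex II (2.06), 7 of 9 of complex III (1.71), 4 of 13 of complex IV (0.77, with 2 lower) and 8 of 15 of complex V (1.41, with 3 lower). The shares over all genes, 37.7% higher and 20.8% lower, apply to each, and complex IV lay below the former. Complex II has no mitochondrial gene. Examples are Ndufc2 of complex I (log2FC 2.26, SE 0.18), Sdhc, a membrane anchor of complex II (3.76, SE 0.17), Uqcrb of complex III (2.87, SE 0.24), Cox6b1 of complex IV (2.79, SE 0.14) and Atp5g3 of the ATP synthase ring (3.42, SE 0.17). Those lower in colon were Ndufa4 (-1.14, SE 0.18) and Cox6c (-1.08, SE 0.18) in complex IV and Atp5l (-1.64, SE 0.17), Atp5h (-1.33, SE 0.16) and Atp5b (-1.03, SE 0.19) in complex V. As a share of all counts these 5 were higher in colon, for example Atp5b at 1220 ± 128 CPM against 561 ± 139 (SD, n = 6), so their direction turns with the scaling.

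Genes that act on mitochondrial RNA and protein synthesis differed less. Of 79 genes of the mitochondrial ribosome 39 were higher in colon and 2 lower (median 0.97), beside the same 37.7% and 20.8% of all genes. Among them were Mrps6 (3.74, SE 0.32) and Mrpl45 (3.31, SE 0.25), with Mrpl32 (-1.46, SE 0.19) and Mrpl33 (-1.17, SE 0.23) lower. Of 38 genes for transcription of mitochondrial DNA and handling of its RNA 6 were higher and 3 lower, fewer each way than those shares, with a median of 0.31 beside 0.46 over all genes. Fastk (3.12, SE 0.18), needed for mt-Nd6 mRNA, had the highest log2FC of the list, followed by Tbrg4 (2.04, SE 0.21) and Slirp (1.92, SE 0.23). Rexo2, a nuclease of short RNA, was lower (-1.67, SE 0.18), as were Mrm1 (-1.21) and Mterf1a (-1.06). Lrpprc, the RNA-binding partner of Slirp, had the most counts of the list in both tissues, 74.3 ± 12.97 CPM in colon and 16.3 ± 4.51 in blood (SD, n = 6). Its log2FC by edgeR's quasi-likelihood test, which does not scale by library totals alone, was 0.06 (SE 0.12, adjusted p = 0.665). As shares of all counts these 5 were higher in colon, for example Rexo2 at 22.6 ± 4.42 CPM against 16.1 ± 3.20 (SD, n = 6), so their direction turns with the scaling.

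Regulators of mitochondrial biogenesis were 6 higher and 1 lower of 11 (median 1.06), and those of mitophagy 2 higher and 2 lower of 7 (median -0.30), beside 37.7% and 20.8% of all genes. Ppargc1a, a coactivator that drives mitochondrial biogenesis, was at 65.0 ± 44.3 CPM in colon and 0.238 ± 0.145 in blood (SD, n = 6). Esrra, a nuclear receptor it acts through, was at 108 ± 18.0 against 2.72 ± 1.04 CPM. Nrf1 was called lower in colon (-2.16, SE 0.13), at 20.0 ± 3.53 CPM against 20.3 ± 5.09 in blood, so that this call rests on the scaling. Of 7 genes of mitophagy, Bnip3l serves the removal of mitochondria from maturing red cells. It was at 6146 ± 3205 CPM in blood and 104 ± 20.6 in colon (log2FC -7.95, SE 0.37). Pink1 was at 314 ± 98.2 against 115 ± 19.6 (-3.65, SE 0.34). CPM rests on library totals, under which the median log2FC over all genes was 2.57, against 0.46 on the scaling of the test. Both log2FC values therefore lie further from 0 than the CPM values alone would give. Bnip3 was higher in colon (1.94, SE 0.35). For UC against control, 0 genes of any of these lists were SDE in either tissue by edgeR's quasi-likelihood test. An unadjusted p under 0.05 was found for 2 of the 79 ribosomal genes in colon, Mrps21 and Mrps31 (named after their values were seen), and for 0 of the listed genes in blood. DESeq2 also called 0. Median log2FC of the nuclear OXPHOS genes was 0.14 in colon and 0.01 in blood.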

How the data were processed

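Total RNA-seq counts per gene of 12 libraries were analysed, 3 in each of 4 groups set by the labels for tissue and treatment. Colon RNA was prepared with miRNeasy Mini and Ribo-Zero Gold, and blood RNA with RNeasy Protect Animal Blood and Globin-Zero Gold. The authors trimmed reads with Flexbar, removed ribosomal reads with bbduk, aligned with STAR to GRCm38, and made whole-number counts from StringTie 1.3.4c coverage on Ensembl genes. The deposited counts are thus derived from coverage and not from a tally of reads. Genes that overlap are uncertain, and no strand setting is named that would separate those on opposite strands. Deposited normalized counts, per tissue, are a signal equal to the count divided by 1 factor per library and were used only for values shown. For the 2 rRNAs they were made here with the same factors. The number of per-sample columns not used was 0.

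All genes were fitted with edgeR 4.0.16 (R 4.3.3) by the quasi-likelihood test, with TMM scaling, filterByExpr and Benjamini-Hochberg adjustment. Calls needed an adjusted p of 0.05 or less and a log2FC beyond 1 in either direction. The SE is the log2FC divided by the root of the F statistic. The code was tested on simulated data. Intervals are Wilson at 95%, and the floor for 0 is 3 counts. Alternatives were DESeq2 1.42.0, RLE or library-size scaling, other count filters, totals without 7SL and 7SK genes, leaving out each mouse, and a replicate block. Sequences and positions are from GENCODE vM21. Of 229 entries in the nuclear lists 223 were found.

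Colon and blood came from the same mice by design. Deviations from group means over 15647 genes correlated between tissues at 0.245, 0.0804, 0.150, 0.0761, 0.125 and 0.0130 in mice 1, 2, 4, 7, 8 and 9. The p-values of UC against control measure the spread between 3 mice a group. Those of colon against blood and of the interaction treat the 12 libraries as independent, except with the replicate block. Those of the ratios between tissues rest on 6 differences within mice. The members and gene lists were chosen with earlier results of these data known. All mRNAs and rRNAs were named, tRNAs by a mean of at least 100 counts or as the lowest, and nuclear genes from those with the highest CPM or largest called change of each list.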

Additional observations from a re-analysis of the deposited data

Results flagged for a closer look

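Among 58 values examined for a library far from the other 5 of its tissue, 1 stood apart, and chance alone does this in about 1 of 20 sets. In blood, mt-Co1 over mt-Co3 per base was 3.18 in mouse 1, and the nearest other library had 2.03, a gap of 0.703 of the whole range. mt-Co1 and mt-Co3 had 111068 and 17725 counts there.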

How the results depend on the processing

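For UC against control, 0 mitochondrial genes were called under any alternative, and signs of small log2FC values were not steady. With library-size scaling in blood they became -0.13 (mt-Nd1), -0.14 (mt-Nd2), -0.16 (mt-Co2), -0.47 (mt-Rnr1), -0.041 (mt-Atp8), -0.25 (mt-Co3), -0.36 (mt-Nd3), -0.39 (mt-Nd4), -0.093 (mt-Nd5) and -0.083 (mt-Cytb). Without 7SL and 7SK genes mt-Nd3 was at -0.0070. With nuclear copies added, an alternative chosen after seeing the data, mt-Atp6 was at 0.22. Leaving out 1 mouse in turn gave, in blood, -0.18 to 1.49 (mt-Atp8), -0.073 to 0.51 (mt-Co2), -0.31 to 0.68 (mt-Co3), -0.10 to 0.80 (mt-Nd1), -0.27 to 0.38 (mt-Nd3), -0.15 to 0.58 (mt-Nd4), -0.74 to 0.91 (mt-Nd6), -0.28 to 0.80 (mt-Rnr1) and -0.64 to 0.86 (mt-Rnr2), and in colon -0.0047 to 0.48 (mt-Nd3), -0.036 to 0.25 (mt-Nd4l), -0.24 to 0.16 (mt-Nd6) and -0.81 to 0.24 (mt-Rnr2). Ratios of colon minus blood ranged from -0.16 to 0.059 (mt-Co1/mt-Co3), -0.092 to 0.11 (mt-Nd1/mt-Nd2) and -0.36 to 0.023 (mt-Nd6/mt-Nd5). The cause was not tested.

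The colon share of 2.67% was 8.46% with rRNAs, 3.33% of protein-coding counts and 3.77% with copies. The blood share of 0.128% was 0.457% with rRNAs, 0.275% without 7SL and 7SK genes and 0.341% of protein-coding counts. For colon against blood, the replicate block called 23 of 28 genes (37.4% of all genes were higher in colon), losing mt-Tq and mt-Tp, gave mt-Atp6 a log2FC of 6.64, and left 0 called for the interaction. The tRNAs among the 28 passed the count filter through the colon. Calls otherwise ran from 19 of 24 (control libraries only, 34.4% of all genes) to 28 of 28 (library-size scaling, 76.9% of all genes). The 15 mRNAs and rRNAs were called under each alternative that gave a p, except mt-Atp6 and mt-Rnr2 with control libraries only. Of the tRNAs 21 never passed 19 counts in blood and none was tested there.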
